A study of Rattus norvegicus with 18 samples.

Results

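Tyrosine hydroxylase (Th) was followed as the only member, 1 gene of the 32623 gene numbers in the count table, and was taken from the row ENSRNOG00000020410. RNA of whole retinae was sequenced from 18 male Wistar rats, 6 in each of 3 groups, which entered the study at an age of 8 weeks. Healthy age-matched animals (NC) received no streptozotocin. Diabetic animals (DC and DC + Lixi) had received 35 mg/kg of streptozotocin, which destroys beta cells of the pancreas, and the retinae were taken after 12 weeks of hyperglycemia. DC + Lixi animals were also given lixisenatide, which activates the receptor of GLP-1, at 150 µg/kg body weight under the skin, whereas the labels give placebo for NC and DC. Each animal gave 1 library, so the replicates were separate animals.

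Tyrosine hydroxylase converts tyrosine to L-DOPA, the rate-limiting step in the synthesis of dopamine and the other catecholamines. In the retina the enzyme marks the dopaminergic amacrine cells, a sparse class of inner retinal interneurons. These cells release dopamine in the light, and dopamine shifts the retina from rod to cone signalling, partly by uncoupling gap junctions, and takes part in its day and night rhythm. Transcription of Th in neurons is known to respond to activity and to cAMP, in part through a cAMP response element close to its start. In bulk RNA of whole retina, fewer dopaminergic cells and less Th RNA per cell cannot be told apart.

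The stretch around the start of Th is shown because it holds that element. RefSeq gives it for the rat build GRCr8 at chr1:207508169-207508468 on the minus strand, with 250 bases before and 50 bases after the start. The build behind the deposited counts is not given in the sources used here. Capitals mark, in this order, a match to the AP-1 motif, a match to the EGR motif on the opposite strand, and the cAMP response element.
Th promoter: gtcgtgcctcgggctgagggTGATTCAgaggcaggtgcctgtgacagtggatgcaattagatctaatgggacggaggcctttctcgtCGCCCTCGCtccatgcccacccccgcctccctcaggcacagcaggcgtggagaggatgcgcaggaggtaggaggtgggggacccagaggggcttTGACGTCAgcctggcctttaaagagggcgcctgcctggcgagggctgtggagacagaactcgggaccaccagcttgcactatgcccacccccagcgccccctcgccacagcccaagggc
The cAMP response element (TGACGTCA, searched on both strands) began 69 bases before the start and was held by 1.83% of the 33469 promoters of the same length. It contains the shorter motif TGACG, which was found in 21.2% of promoters and in Th only within the full element. The AP-1 motif (TGANTCA), a site for Fos and Jun family proteins, began 230 bases before the start and was held by 7.33% of promoters. The EGR motif (GCGNGGGCG), a site for zinc finger factors of the early response family, lay 163 bases before the start and was held by 4.98% of promoters. None of the motifs overlapped apart from the full and the short form of the cAMP response element, and the matches describe letters, not binding.

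Th was expressed at a middle level in every retina. The deposited FPKM, which divides counts by gene length and library size, was 4.97 on average over the 18 libraries, and 37.3% of the 16524 genes tested had a lower mean FPKM. Between 20338 and 20911 genes per library had an FPKM above 0, and 42.8% to 56.9% of them stood below Th. The counts of Th were whole in all 18 libraries, none was missing, and they ran from 149 to 420 at 28311699 to 39131683 total counts per library. Counting error alone amounted to 4.88% to 8.19% of the value, and the coefficient of variation between animals was 17.0% in NC, 18.3% in DC and 33.8% in DC + Lixi. Intervals and errors of counting cover counting error only, since the reads carry no molecular identifiers.

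In NC, the normalised count of Th (CPM, the count scaled to library size, here with TMM factors) was 8.21, 9.42, 10.3, 10.5, 11.8 and 13.4 in animals 437, 433, 438, 439, 432 and 431. In DC it was 5.13, 7.22, 7.47, 7.75, 7.85 and 9.35 in animals 390, 386, 425, 407, 430 and 396. Of the 6 DC animals, 5 stood below every NC animal, and only DC 396 reached into the NC range. In DC + Lixi it was 5.01, 5.50 and 6.93 in animals 403, 401 and 388, and 9.61, 11.0 and 11.4 in animals 419, 428 and 418. The treated animals spanned the widest range of the 3 groups. The 3 lower ones lay at or below 6.93 CPM and the 3 higher ones at or above 9.61 CPM. This gap of 2.67 CPM stood beside widest gaps between neighbouring animals of 2.09 CPM in DC and 1.52 CPM in NC, and a split was not tested.

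**Figure D1:**
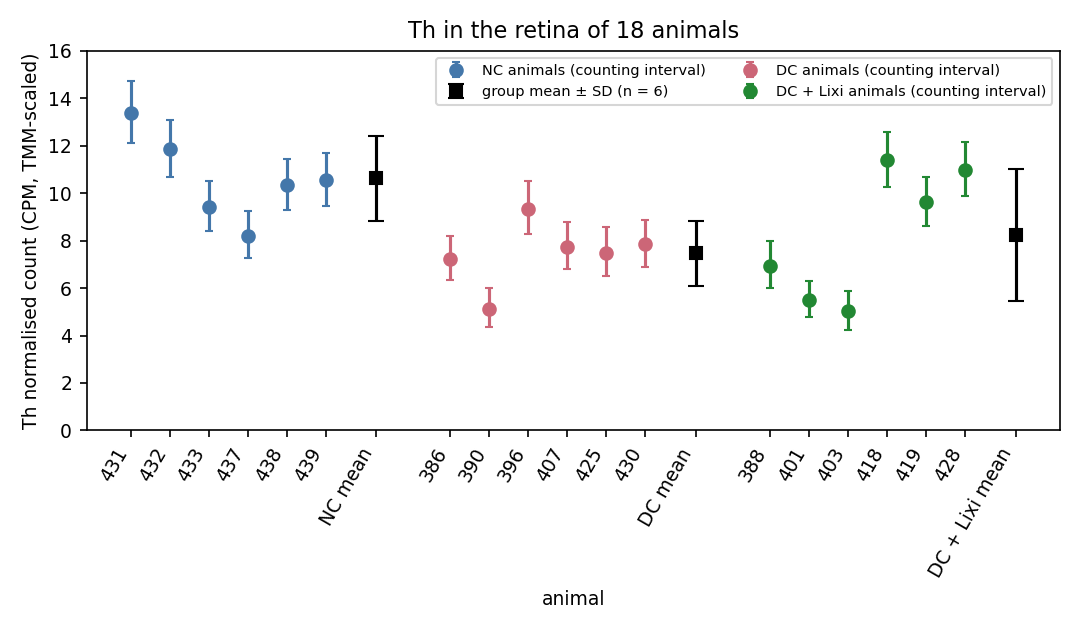
Normalised count of Th (CPM, TMM-scaled, linear axis from 0) in each of the 18 animals, with the exact Poisson 95% counting interval as the bar, and the mean ± SD of each group (n = 6) as black squares. The DC animals lie at 5.13 to 9.35 CPM, 5 of 6 below the NC range of 8.21 to 13.4, and the DC + Lixi animals spread from 5.01 to 11.4 CPM.

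The order of the group means was NC, DC + Lixi and DC. Th stood at 10.6 ± 1.81 CPM (SD, n = 6) in NC, at 8.23 ± 2.78 CPM (SD, n = 6) in DC + Lixi and at 7.46 ± 1.36 CPM (SD, n = 6) in DC. Per length these levels were 6.05 ± 1.04, 4.61 ± 1.59 and 4.25 ± 0.787 FPKM (SD, n = 6) in the same order. The neighbours in this order, NC with DC + Lixi and DC + Lixi with DC, did not differ beyond their spread in either test given below, whereas the ends, NC and DC, differed in the exact test described next.

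Whether hyperglycemia changes gene expression in the retina was addressed by DC vs NC. The mean of Th was lower by 29.7% in untreated diabetic animals. The log2 fold change was -0.51 (standard error 0.19, 95% interval -0.91 to -0.11, edgeR's quasi-likelihood test over all 18 libraries). Taken as a single gene, the difference of -3.16 CPM exceeded the spread between animals (exact permutation test, two-sided, n = 6 vs. 6, p = 0.00433, adjusted p = 0.013 over the 3 comparisons), where the smallest p that the design allows is 0.00216. In 35 of the 36 pairs of a DC and an NC animal the DC animal was the lower one. The share of all genes with as clear a separation of these groups is not given here. Among all 16524 genes tested, however, Th missed the threshold of 0.05 (edgeR, unadjusted p = 0.0161, adjusted p = 0.0784 by Benjamini-Hochberg), in a comparison where 30.7% of genes had an unadjusted p under 0.05. In this comparison 1105 genes, or 6.69% of those tested, were called lower in DC. Their median log2 fold change was -0.23, and 126 of them were lower by as much as Th or more. The estimated difference in Th, which was not called, was thus larger in size than that of most genes called lower. Of all genes tested, called or not, 402 (2.43%) were lower by as much as Th or more. The biological coefficient of variation that edgeR assigned to Th was 0.231, against a trend of 0.179 for genes of its abundance, and 15.5% of all genes had a higher one.

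The call for DC vs NC differed between tools and fits. With DESeq2 the log2 fold change was -0.51 and the adjusted p was 0.0436, in a run that called 3088 genes in this comparison. The study's methods also name DESeq2, but they give no threshold for calling genes, and the study reports far fewer genes. Its own result for Th therefore cannot be read from the run made here. When only the 12 libraries of NC and DC entered edgeR, leaving out the more variable DC + Lixi animals, the log2 fold change was -0.52 (standard error 0.14) and the adjusted p was 0.023. The fold change hardly moved with these 2 settings, but it turned to 0.13 (edgeR, adjusted p = 0.857) once RNA integrity entered the fit, as described further on. Leaving out each of the 18 animals in turn gave log2 fold changes of -0.58 to -0.43 and adjusted p-values of 0.0528 to 0.163 with edgeR, so no animal changed the call.

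In lixisenatide-treated diabetic animals compared with NC, the mean of Th was lower by 22.4%, and the log2 fold change was -0.37 (standard error 0.19, 95% interval -0.77 to 0.03). This difference did not pass the test over all genes (edgeR, unadjusted p = 0.0708, adjusted p = 0.304) nor the test of the single gene (difference of -2.39 CPM, exact permutation test, two-sided, n = 6 vs. 6, p = 0.11, adjusted p = 0.166). Of the 6 treated animals, 3 stood below every NC animal and the other 3 within the NC range. Of all genes tested, 97 (0.587%) were called lower and 157 higher in DC + Lixi than in NC. This split turned in some settings, to 294 lower and 139 higher with total counts only. It turned to 236 lower and 71 higher with limma on log2(FPKM + 1). With TMM kept and only the 2 groups compared it was 109 lower and 76 higher, while RLE factors gave 89 lower and 158 higher. When 1 animal was left out, 7 (without DC + Lixi 428) to 211 genes (without DC + Lixi 401) were called lower. The comparisons with NC share the same 6 NC libraries.

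Between lixisenatide-treated and untreated diabetic animals the log2 fold change of Th was 0.14 (standard error 0.19), and the range of DC lay within that of DC + Lixi. The 95% interval of the fold change ran from 0.834 to 1.46, so neither a modest loss nor a larger gain lay outside it. Neither the test over all genes (edgeR, adjusted p = 0.791) nor that of the single gene passed (difference of 0.768 CPM, exact permutation test, two-sided, n = 6 vs. 6, p = 0.561, adjusted p = 0.561). Animals 418, 419 and 428 stood above every DC animal, 403 stood below every DC animal, and 388 and 401 stood among them. By edgeR 0% of the 16524 genes were called in this comparison, with 2048 genes (12.4%) at an unadjusted p under 0.05, while DESeq2 called 100 genes and limma-voom 0.

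**Figure D2:**
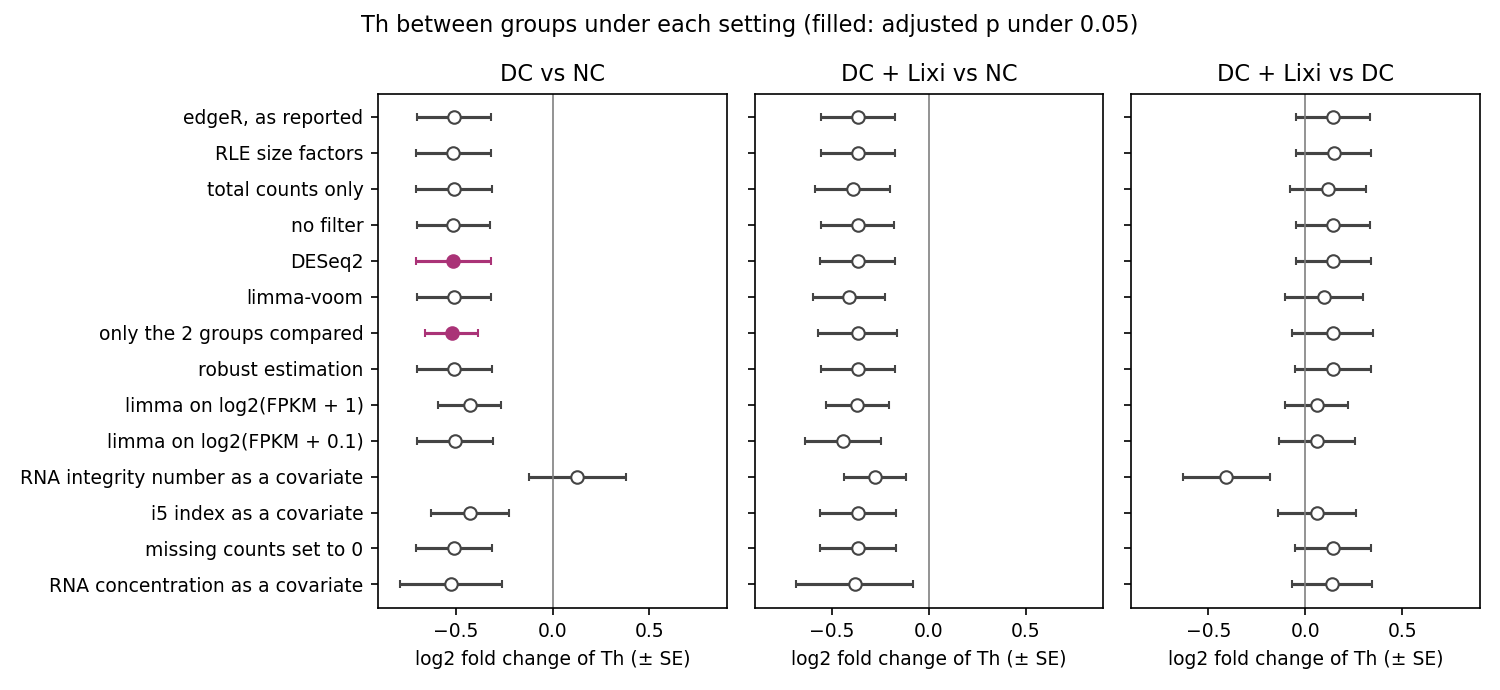
Log2 fold change of Th with its standard error (linear axis, 0 marked) for the 3 comparisons, in edgeR as reported and in 13 other settings, with filled points where the adjusted p over all genes was under 0.05. The value for DC vs NC stays between -0.52 and -0.43 except where RNA integrity entered as a covariate, where it is 0.13, and it is filled with DESeq2 and with only the 2 groups compared.

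RNA integrity moved with Th within DC + Lixi, and its values in all groups are therefore given beside the result. The RNA integrity number (RIN, a score of RNA intactness in the authors' sample sheet) was 8.6 to 8.9 in NC and 9.2 to 9.5 in DC without overlap, so that group and integrity cannot be told apart between these groups. In DC + Lixi it was 8.4 to 9.4. There the animals with higher Th had the lower numbers, with 8.4, 8.7 and 8.9 in 428, 418 and 419, against 9, 9 and 9.4 in 388, 401 and 403. Within DC + Lixi Pearson's r between RIN and Th CPM was -0.86 (exact permutation test, n = 6, p = 0.00833, adjusted p = 0.05) and Spearman's rho was -0.93 (exact permutation test, p = 0.0167, adjusted p = 0.1). Without the animals farthest from the median integrity, 403 and 428, r was -0.92 over the other 4. The same step gave -0.15 in NC, where r had been 0.38, and -0.68 in DC, where it had been -0.34. The 4 animals kept held only the numbers 8.8 and 8.9 in NC and 9.3 and 9.4 in DC. These r therefore rest on a single step of integrity. In NC, moreover, 432, which was left out, and 439, which was kept, lay equally far from the median. Neither adjusted p within DC + Lixi was under 0.05. Over all 6 animals, r within NC was 0.38 and rho 0.33 (exact permutation p = 0.467 and 0.583), and within DC r was -0.34 and rho -0.38 (exact permutation p = 0.522 and 0.478), over a narrower range of integrity numbers. These relations were computed after the data were seen, in a family of 6 that also held RNA concentration. For concentration every r lay between -0.57 and 0.37, and no exact permutation p of r or rho was below 0.242. Concentration, too, went with group, at medians of 290 ng/µl in NC, 525 in DC and 610 in DC + Lixi. The ranges of NC (212 to 541) and DC (486 to 596) overlapped. Entering concentration in edgeR kept Th in DC vs NC at -0.52, but the standard error was 0.26 and the adjusted p 0.271.

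With RIN as a covariate in edgeR, the log2 fold change of Th in DC vs NC turned from -0.51 to 0.13 (standard error 0.25, adjusted p = 0.857). That of DC + Lixi vs DC turned from 0.14 to -0.41 (standard error 0.23, unadjusted p = 0.0887, adjusted p = 0.74), and that of DC + Lixi vs NC was -0.28 (standard error 0.16, adjusted p = 0.38). When each animal was left out of this fit in turn, the value for DC vs NC stayed between 0.03 and 0.22. With integrity in the fit the direction of Th between NC and DC was thus not kept. That fit gives all groups a common slope, although NC and DC shared no integrity number. DC + Lixi held the widest spread of integrity (SD 0.335, against 0.103 in NC and 0.105 in DC). The value of 0.13 for DC vs NC carries this slope across a gap without NC or DC animals, which leaving out animals does not test. Its standard error covers both 0 and modest changes in either direction. With the groups held, Th was lower by a log2 slope of -1.11 per unit of RIN (standard error 0.34, edgeR, unadjusted p = 0.00438). Over all genes this slope did not pass (edgeR, adjusted p = 1), and 3.52% of genes had an unadjusted p under 0.05 for it.

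**Figure D3:**
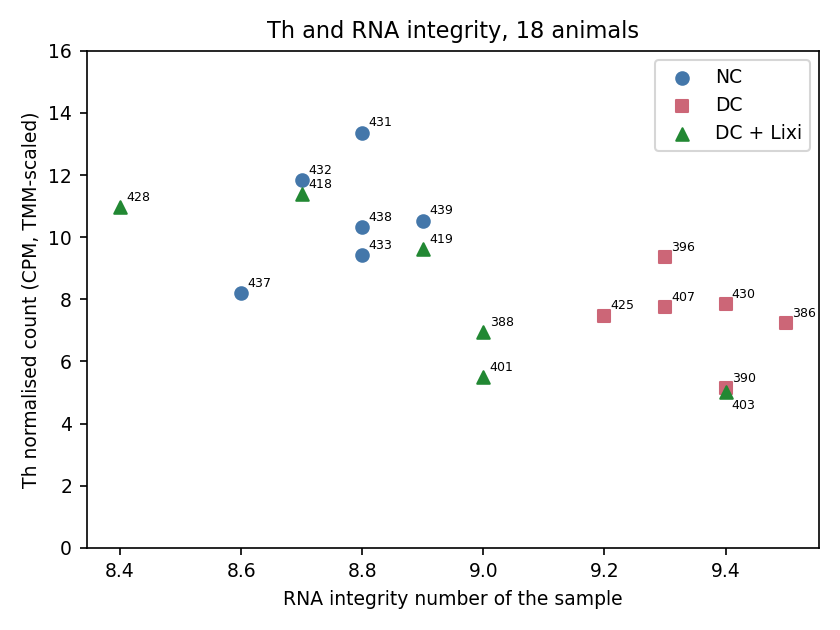
Normalised count of Th (CPM, linear axis from 0) against the RNA integrity number of the same sample for the 18 animals, marked by group and labelled by animal. NC and DC occupy separate ranges of integrity (8.6 to 8.9 and 9.2 to 9.5), and within DC + Lixi the points go from high Th at 8.4 to low Th at 9.4.

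Genes with a pattern like that of Th were ranked by Pearson's r of log2 CPM over the 18 libraries, as a description without a test. The points share their libraries, depth and RNA integrity. Over all other genes tested the median r was -0.01, with 5% of genes below -0.50 and 5% above 0.51. The 10 genes most like Th had r of 0.79 to 0.87, and of these 10, 9 were also among the 10 highest on the FPKM scale and 6 among the 10 highest by Spearman's rho. The gene numbers could not be tied to gene names, since the files do not pair them with symbols and 0 of the 32623 had a match in the RefSeq gene table, so only the first few are given by number.

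The closest gene was ENSRNOG00000049517 (r = 0.87, and 0.81 for deviations from the group means). It stood at 188 ± 28.4 CPM in NC, 129 ± 23.3 CPM in DC and 140 ± 34.5 CPM in DC + Lixi (SD, n = 6). In DC vs NC it was called lower at a log2 fold change of -0.55 (standard error 0.15, edgeR, adjusted p = 0.021), close in size to that of Th but with a smaller error. Once RIN entered the fit, edgeR called 0 of the 16524 genes in this comparison, so this call was lost along with all others. The next was ENSRNOG00000047339 (r = 0.86), whose group means differed little, at 264, 247 and 256 CPM in NC, DC and DC + Lixi (edgeR, adjusted p = 0.269 for DC vs NC). Its likeness to Th came from differences between animals of the same group, as r was 0.86 for deviations from the group means too.

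All of the 10 most similar genes had a lower mean in DC than in NC, which the ranking favours, and 1 of them was called lower, beside 6.69% of all genes tested. Of the genes that ran opposite to Th, ENSRNOG00000012802 (r = -0.84) and ENSRNOG00000030345 (r = -0.83) came first. The former stood at 101.4, 109.8 and 108.7 CPM in NC, DC and DC + Lixi. The latter had few counts, at 0.181, 0.893 and 1.03 CPM with SDs of 0.187, 0.652 and 1.37 CPM, so that few reads set its pattern. Neither gene was called in DC vs NC (edgeR, adjusted p = 0.521 and 0.0911). When only deviations from the group means were ranked, the 10 genes most like Th had r of 0.83 to 0.90, and 2 of them were shared with the ranking over all differences.

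**Figure D4:**
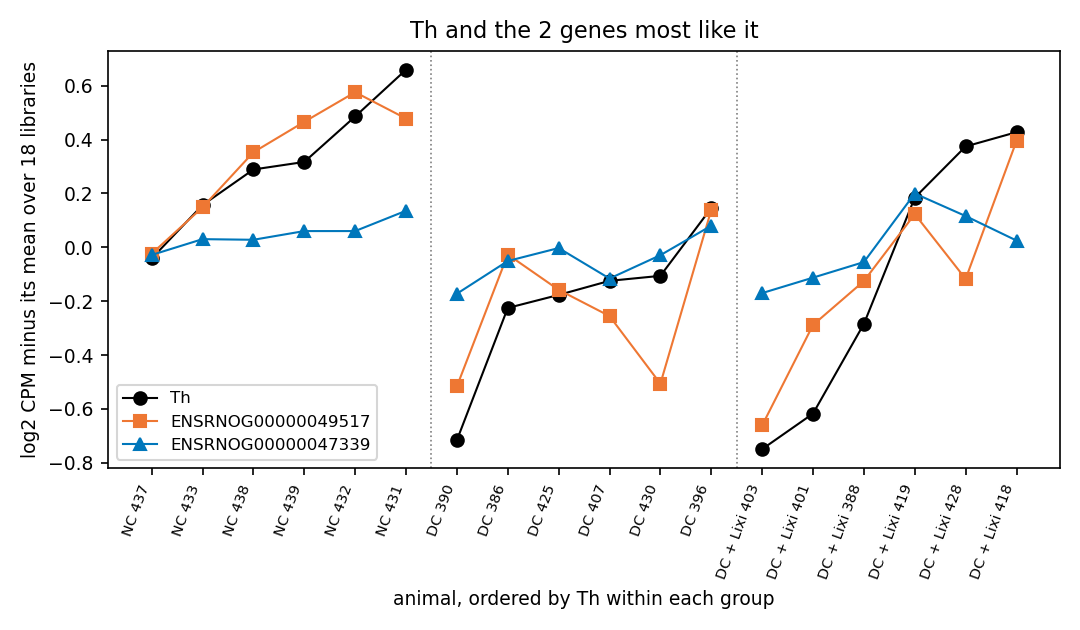
Log2 CPM minus its mean over the 18 libraries for Th and the 2 genes with the highest r to it, by animal, ordered by Th within each group (lines join animals of a group). ENSRNOG00000049517 (r = 0.87) has a change similar in size to that of Th between NC and DC, while ENSRNOG00000047339 (r = 0.86) follows Th from animal to animal on a much smaller scale.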

How the data were processed

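Retinal mRNA of 18 rats was sequenced as single-end reads, which the authors aligned to a gene model of the rat, quantified with Array Studio 10.1.3.3 and tested in its DESeq2 module. Aligner and genome build: not given in the sources used here. The authors deposited estimated counts per gene, not normalized (26.0% of those above 0 were not whole), and FPKM values. The sample sheet they deposited gives for each library a count of alignments (49487399 to 68360387), a score of RNA integrity, the RNA concentration and a ratio of absorbance, the last of which was not used.

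Of 46805 missing counts, 4081 had an FPKM above 0, and 1504 of these were restored from FPKM. All others were set to 0, also those with an FPKM above 0 that could not be restored. The row of Th was complete. Counts were rounded and filtered by filterByExpr (16524 genes). They were scaled by TMM (factors 0.967 to 1.046) and tested in edgeR 4.0.16 (R 4.3.3) in 1 fit of the 3 groups with 15 residual degrees of freedom. Genes passing a Benjamini-Hochberg adjusted p of 0.05 were called. The standard error was derived from the F statistic. Th CPM was also compared by exact permutation. Log2 CPM used a prior count of 1. The edgeR test of DC vs NC without covariates and the exact permutation test of means were tried on simulated data, the other steps were not.

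Alternatives were RLE factors, unscaled totals, no filter, DESeq2 1.42.0, limma-voom by limma 3.58.1, fits of only the groups compared, robust estimation, limma on log2(FPKM + 1) and log2(FPKM + 0.1), RNA integrity or i5 index as covariates, missing counts as 0, and leaving out each animal. The i7 index was not entered, since it largely followed the groups. Index 701 was only in NC, 703 only in DC, and 704 and 705 only in DC + Lixi, while 702 was in NC and DC. RNA concentration as a covariate, leaving out animals with integrity held, and the relations of Th with integrity were added after seeing the data. Th, the tests and the lists were chosen with earlier results of these data known. Genes to be named were Th, the 10 genes most like it and the 5 least like it, and members of lists of dopamine, circadian and retinal cell type genes. As no gene number matched the RefSeq table, no list is reported, at most 2 genes of a kind are given by number, and the tissue could not be checked against its markers.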

Additional observations from a re-analysis of the deposited data

How the results depend on the processing

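No paired analysis was possible because the groups share no replicate numbers. For Th in DC vs NC the call of edgeR (log2 fold change -0.51, adjusted p = 0.0784) was gained with DESeq2 (-0.51, adjusted p = 0.0436) and with only the 2 groups compared (-0.52, adjusted p = 0.023). With RNA integrity as a covariate the direction reversed for DC vs NC (0.13) and for DC + Lixi vs DC (-0.41), and the cause was not tested. The other 10 settings kept the direction and the call for DC vs NC, as did all 13 for DC + Lixi vs NC (-0.44 to -0.28) and the other 12 for DC + Lixi vs DC. Leaving out each animal gave -0.58 to -0.43, -0.48 to -0.26 and 0.03 to 0.25 in the 3 comparisons, with no change of call in edgeR. The exact test of DC vs NC passed in all 4 other settings and without each animal (differences of -3.64 to -2.61 CPM, adjusted p up to 0.039). Without one animal these differences were -3.02 to -1.74 CPM for DC + Lixi vs NC and 0.14 to 1.41 CPM for DC + Lixi vs DC. The mean FPKM ran from 5.75 to 6.35 in NC, 4.02 to 4.51 in DC and 4.25 to 4.97 in DC + Lixi when 1 animal was left out.

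The background of all genes moved more. The 2652 genes called in DC vs NC became 0 with RNA integrity, 264 with RNA concentration and 1493 with the i5 index as a covariate, 1752 without DC 390 and 1485 without DC 430. The 254 genes of DC + Lixi vs NC became 433 with total counts only, 121 without a filter, 835 with DESeq2, 116 with limma-voom, 45 with RNA integrity, 0 with RNA concentration and 66 with the i5 index, and 27 (without DC + Lixi 428) to 611 (without DC + Lixi 401) when 1 animal was left out. For DC + Lixi vs DC, 5 genes were called without DC 425 and 100 with DESeq2.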
